A study of Mus musculus with 4 samples.

Results

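The genes followed here are *Hcn4*, *Shox2*, *Vsnl1*, *Cacna1g*, *Cacna1h*, *Gja1*, *Gja5* and *Gjc1*, which code for parts of the cardiac pacemaker programme and for gap junctions. These 8 genes were found by symbol among the 32286 features listed for days 4, 5 and 6 and the 32287 listed for day 11. All 8 had at least 1 unique molecular identifier (UMI, 1 counted RNA molecule) in the kept cells of every day. The cells came from gastruloids, which are free-floating aggregates of embryonic stem cells that form several embryonic tissues in culture. All libraries were made from the wild-type mouse embryonic stem cell line Zx1, and there was a single library for each of days 4, 5, 6 and 11. Every culture had received a pulse of the Wnt agonist CHIR99021 before day 4, and bFGF, VEGF and ascorbic acid were given from day 4 to day 7. Each library pooled cells of at least 8 gastruloids, so the variation between gastruloids was not measured, and a day cannot be told apart from its library. There were no replicates, so no test was made, and the 95% intervals in parentheses cover counting error only.

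In the embryonic heart, pacemaker cells of the sinus node fire on their own because HCN channels, with *Hcn4* as the main one, let a depolarizing current in between beats. T-type calcium channels, whose pores are coded by *Cacna1g* and *Cacna1h*, add to this slow depolarization. *Shox2* codes for a homeodomain factor that is needed for the sinus node, and *Vsnl1* for a neuronal calcium sensor protein that marks nodal and sinus venosus cells. Connexins join neighbouring cells electrically. *Gja1* codes for the main connexin of working ventricular muscle, *Gja5* for a connexin of atrial muscle, the fast conduction system and arterial endothelium, and *Gjc1* for a low-conductance connexin found in the early heart and in nodal tissue.

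The RefSeq annotation of GRCm38.p6 places *Hcn4* at chr9:58822949-58863175, *Shox2* at chr3:66971723-66981771 and *Vsnl1* at chr12:11325257-11436578. *Cacna1g* lies at chr11:94408391-94474400 and *Cacna1h* at chr17:25374285-25436334. *Gja1* lies at chr10:56377300-56390419, *Gja5* at chr3:97032402-97053634 and *Gjc1* at chr11:102799477-102819686. All 8 are annotated as protein-coding.

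After filtering, 6555, 6457, 5254 and 7854 cells were kept at days 4, 5, 6 and 11. The median depth of these cells was between 24160 and 28078 UMIs at days 4 to 6 and 11394 UMIs at day 11. Between 5 and 23 cell barcodes were shared by any 2 libraries. Cells with 30 or more *Myl7* UMIs per 10000 UMIs were called *Myl7*-high; *Myl7* codes for the atrial myosin light chain and is an early cardiomyocyte gene. No cell at day 4 or day 5 reached this limit (0 of 6555 and 0 of 6457, exact upper limits 0.0563% and 0.0571%). At day 6, 423 of 5254 cells did (8.05%, exact interval 7.33 to 8.82%). At day 11, 1294 of 7854 cells did (16.5%, 15.7 to 17.3%). The limit had no gap around it: the nearest cells stood at 29.87 below and 30.0006 above it at day 6, and at 29.94 and 30.09 at day 11. The label of these cells as heart muscle held for its markers. All 10 cardiomyocyte markers were at least 2-fold higher in *Myl7*-high cells than in other cells at both days, with summed levels of 24628 against 436 UMIs per 1000000 UMIs (CPM) at day 6 and 39201 against 1103 CPM at day 11. Of 5 smooth muscle markers above the filter, 3 (*Acta2*, *Tagln* and *Cnn1*) were higher in them at each day, and *Cald1* was lower at day 11 (191 against 417 CPM), with summed levels of 5230 against 308 CPM and 2583 against 639 CPM, while 7 of 8 endothelium markers were lower at each day.

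Over all kept cells *Hcn4*, *Shox2*, *Vsnl1* and *Cacna1h* were scarce at days 4 and 5 and higher at day 6. *Hcn4* stood at 1.28, 0.827, 12.2 and 17.8 CPM in the order of the days. *Vsnl1* stood at 0.250, 0.106, 24.3 and 42.1 CPM over the same days, and *Shox2* at 0.952, 2.83, 19.5 and 99.0 CPM. *Shox2* was already higher at day 5 than at day 4 beyond counting error, when *Vsnl1* and *Hcn4* were lower. *Cacna1h* went from 0.941 and 0.640 CPM to 6.80 and 18.6 CPM, and *Cacna1g* from 1.70, 1.73 and 2.06 CPM to 8.69 CPM at day 11. The connexins followed other courses. *Gja1* stood at 67.8, 33.8, 53.0 and 42.4 CPM and *Gjc1* at 65.3, 38.9, 94.4 and 82.5 CPM, so both were plentiful before any *Myl7*-high cell was found. *Gja5* had 4 UMIs at day 4 and 2 at day 5, and stood at 0.714 CPM at day 6 and 2.86 CPM at day 11.

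**Figure D1:**
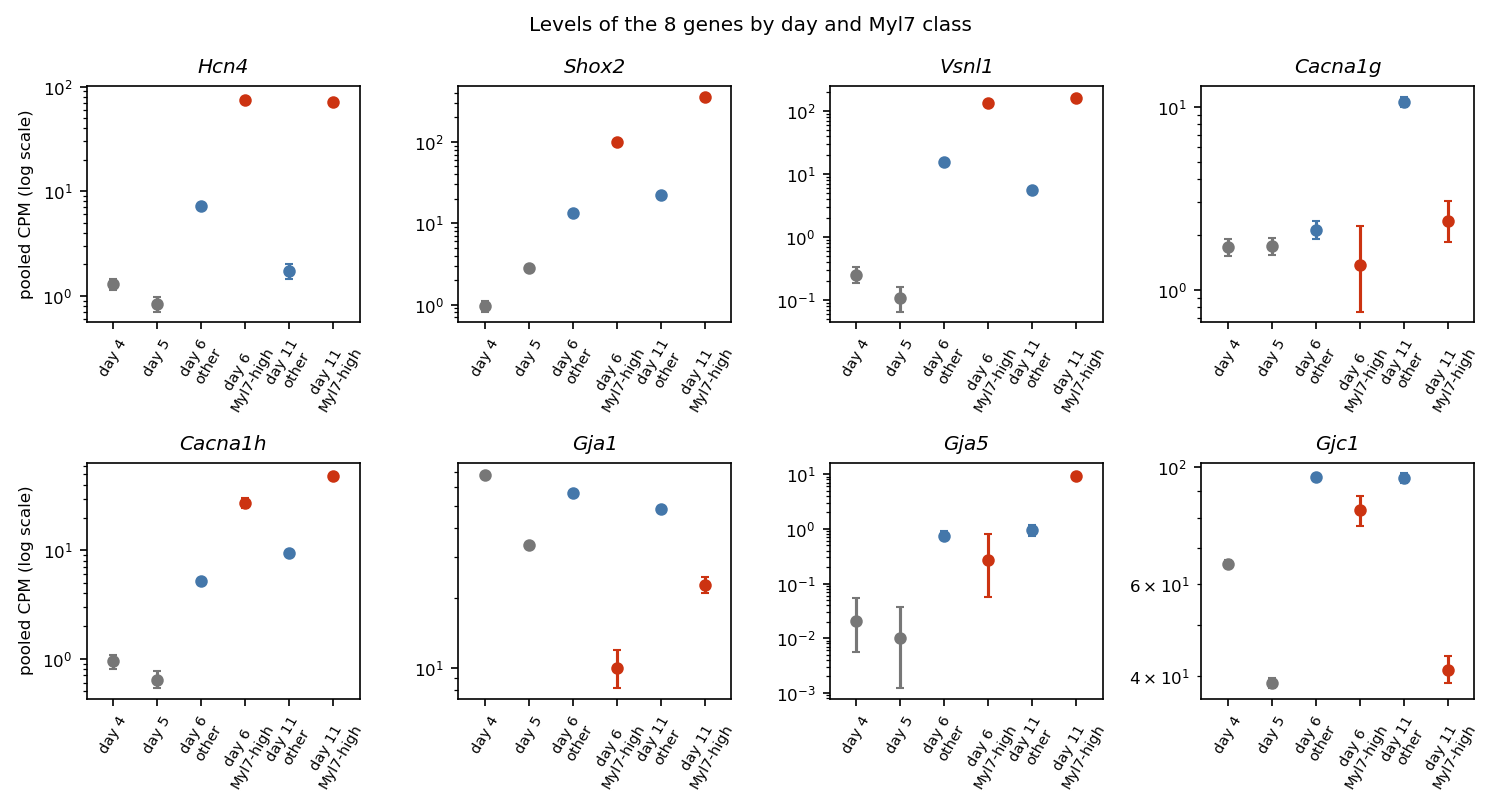
Pooled level of each of the 8 genes in CPM, on a log axis that differs between panels, at days 4 and 5 over all kept cells (grey) and at days 6 and 11 in other cells (blue) and in *Myl7*-high cells (red); bars are exact 95% Poisson intervals. *Hcn4*, *Shox2*, *Vsnl1* and *Cacna1h* lie higher in the *Myl7*-high cells of both days, *Gja1* lies lower in them, and *Gja5* lies higher in them at day 11.

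The first comparison asked how the 8 genes differed between heart muscle cells and the rest of each gastruloid library. In *Myl7*-high cells of both days *Hcn4*, *Shox2*, *Vsnl1* and *Cacna1h* were at least 5-fold higher and *Gja1* was lower, and *Cacna1g* and *Gjc1* were called lower at day 11. Genes at 5 CPM or more over the cells compared were counted as called when the ratio of CPM was at least 2 or at most 0.5. At day 6, 6 of the 8 genes passed the level filter; 4 were higher and 1 lower, where 5.63% of all 9795 genes were higher and 10.8% lower. At day 11, 7 of the 8 passed; 4 were higher and 3 lower, where 9.62% of 10421 genes were higher and 20.4% lower. The median gene had a ratio of 0.913 at day 6 and 0.807 at day 11, and ratios are to be read against these values.

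Among the pacemaker genes, *Hcn4* stood at 74.7 CPM in *Myl7*-high cells of day 6 against 7.22 CPM in other cells, a ratio of 10.4 (9.43 to 11.4). At day 11 it stood at 70.5 against 1.72 CPM, a ratio of 40.9 (34.6 to 48.7). The *Myl7*-high level was thus close at the 2 days, while the level outside these cells was lower at day 11. *Shox2* stood at 98.4 against 13.3 CPM at day 6, a ratio of 7.42 (6.88 to 8.004), and at 352 against 22.0 CPM at day 11, a ratio of 16.0 (15.2 to 16.8). *Vsnl1* stood at 135 against 15.5 CPM at day 6, a ratio of 8.71 (8.15 to 9.31), and at 162 against 5.52 CPM at day 11, a ratio of 29.4 (26.8 to 32.4).

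The 2 T-type calcium channel genes went opposite ways. *Cacna1h* stood at 27.3 CPM in *Myl7*-high cells and 5.17 CPM in other cells at day 6, a ratio of 5.28 (4.602 to 6.05). At day 11 it stood at 48.6 and 9.43 CPM, a ratio of 5.16 (4.72 to 5.64). *Cacna1g* had 15 UMIs in the *Myl7*-high cells of day 6 and was under the level filter. At day 11 it stood at 2.38 CPM in *Myl7*-high cells and 10.6 CPM in other cells, a ratio of 0.224 (0.171 to 0.289), so its RNA at day 11 was mostly outside the heart muscle cells.

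Of the connexins, *Gja1* was lower in *Myl7*-high cells at both days. It stood at 9.94 CPM in them and 56.4 CPM in other cells at day 6, a ratio of 0.176 (0.145 to 0.213), and at 22.7 and 48.3 CPM at day 11, a ratio of 0.470 (0.431 to 0.512). *Gjc1* was near the median gene at day 6, with 82.6 against 95.4 CPM and a ratio of 0.866 (0.809 to 0.926). At day 11 it stood at 41.2 against 95.1 CPM, a ratio of 0.433 (0.406 to 0.461). *Gja5* was under the level filter at both days. It had 3 UMIs in the *Myl7*-high cells of day 6, and at day 11 stood at 9.17 CPM in them against 0.941 CPM in other cells, a ratio of 9.74 (7.55 to 12.7). The calls of *Gja1* and *Gjc1* at day 11 lay close to the 0.5 limit. Of the genes above the filter at day 11, 18.5% had a lower ratio than *Gja1* and 16.3% a lower ratio than *Gjc1*. At day 6, 2.41% had a lower ratio than *Gja1*. The *Gja1* ratio became 0.509 with doublets left in and 0.513 at a *Myl7* limit of 10, and the *Gjc1* ratio 0.501 with every cell of more than 200 genes kept.

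The levels also differed among classes of *Myl7* on either side of the limit. At day 6, cells with 3 to 10 *Myl7* UMIs per 10000 already held 29.3 CPM of *Hcn4*, 97.8 CPM of *Shox2* and 87.5 CPM of *Vsnl1*, against 4.70, 4.35 and 8.51 CPM in cells under 3. *Gja1* stood at 24.1 CPM in the former and 59.2 CPM in the latter. *Shox2* was highest at day 6 in cells with 20 to 30 *Myl7* UMIs per 10000, at 201 CPM, and stood at 54.8 CPM in cells with 100 or more. In the *Myl7*-high classes of day 6 (30 to 45, 45 to 100, and 100 or more), *Hcn4* stood at 73.0, 89.3 and 67.5 CPM and *Vsnl1* at 118, 148 and 132 CPM, so neither was highest where *Myl7* was highest. At day 11 the order was different, with *Shox2* at 90.8 CPM in cells with 30 to 45 *Myl7* UMIs per 10000, 172 CPM with 45 to 100 and 427 CPM with 100 or more. *Gja1* at day 11 stood between 47.1 and 54.2 CPM in all classes under 45 *Myl7* UMIs per 10000 and at 17.6 CPM in cells with 100 or more.

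**Figure D2:**
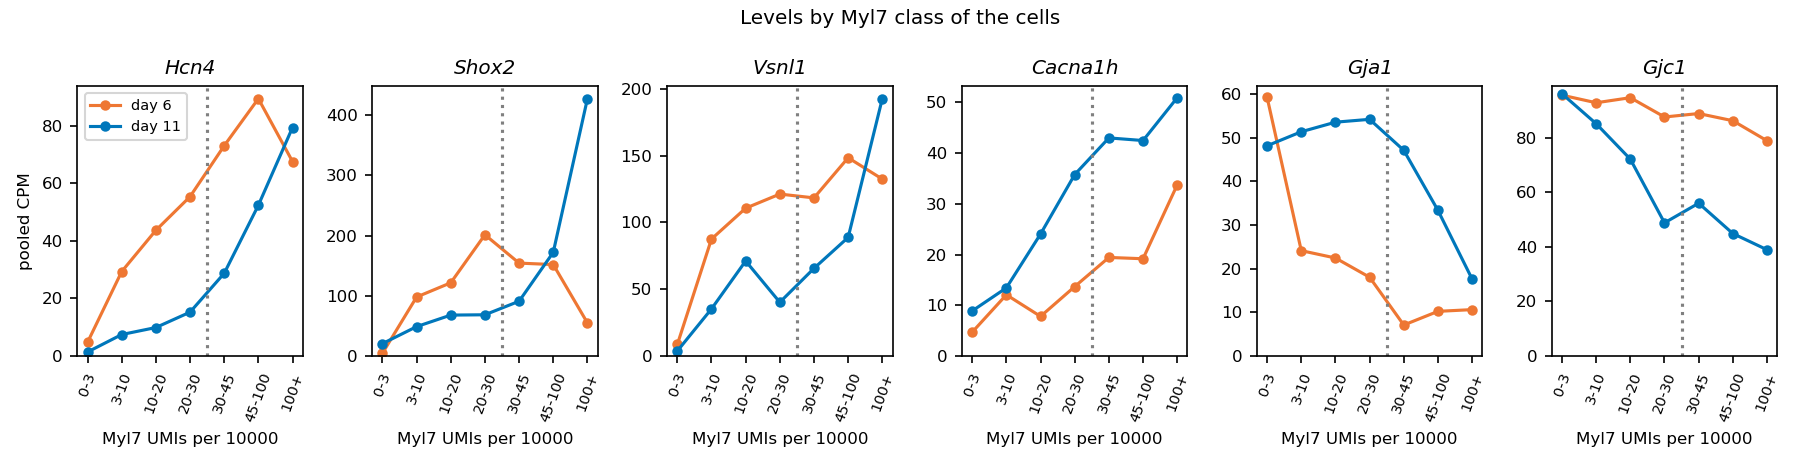
Pooled CPM of 6 of the 8 genes (vertical axes from 0) against the *Myl7* UMIs per 10000 of the cells, in 7 classes, for day 6 (orange) and day 11 (blue); points hold between 52 and 6251 cells, no error bars are drawn, and the dotted line marks the limit of 30. *Shox2* lies lowest among the *Myl7*-high classes of day 6 where *Myl7* is highest (54.8 CPM), and at day 11 lies highest there (427 CPM).

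The second comparison set the *Myl7*-high cells of day 11 against those of day 6. The matrix header of day 11 names Cell Ranger 6.0.1 and those of the earlier days 3.1.0, so a difference in read processing cannot be told apart from the day in these ratios. *Shox2* and *Gja1* were higher at day 11, *Gjc1* was lower, and *Hcn4* and *Vsnl1* were close at the 2 days. Of the 8 genes, 6 passed the level filter; 2 were called higher and 1 lower, where 7.87% of 9631 genes were higher and 8.21% lower, with a median ratio of 0.923. *Shox2* had a ratio of 3.58 (3.36 to 3.81). *Gja1* had a ratio of 2.29 (1.87 to 2.83), which became 1.49 with every cell of more than 200 genes kept, 1.64 with doublets left in, 1.86 at a *Myl7* limit of 10 and 1.66 at a limit of 100. *Gjc1* had a ratio of 0.499 (0.456 to 0.545), at the limit of a call. *Hcn4* (0.944, 0.869 to 1.03), *Vsnl1* (1.20, 1.14 to 1.28) and *Cacna1h* (1.78, 1.57 to 2.03) were not called. *Gja5* went from 3 UMIs to 243 UMIs, a ratio of 33.8 (11.4 to 165), with both days averaged under the level filter.

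Genes known from chamber muscle were also higher at day 11. Of 9 chamber and fast conduction genes, 6 passed the filter, 4 were higher and 1 lower, with a median ratio of 3.26. *Nppa*, the atrial natriuretic peptide gene, stood at 178 against 3.52 CPM, and *Myl2*, the ventricular myosin light chain gene, at 1900 against 554 CPM. Of 4 pacemaker transcription factors, 3 passed and *Isl1* alone was called, at 22.8 against 60.2 CPM.

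The third comparison split the *Myl7*-high cells by whether they held a *Shox2* UMI. At day 6, 168 of 423 *Myl7*-high cells were *Shox2*-positive (39.7%), and at day 11, 756 of 1294 were (58.4%). With every cell thinned at random to 5000 UMIs, and shallower cells left out (4 at day 6 and 106 at day 11), the shares were 23.6% of 419 and 49.1% of 1188. Free RNA was not measured, but the shares in clusters taken as background were far lower. In endothelium-like cells, which should lack *Shox2*, 1.79% of 391 cells were positive at day 6 (0.512% thinned, median depth 32733 UMIs) and 3.04% of 460 at day 11 (1.72% thinned, 16250.5 UMIs). In neural-like clusters the share was 2.64% at day 6 and between 1.56% and 6.47% at day 11. Positive and negative *Myl7*-high cells had median depths of 23938 and 23152 UMIs at day 6, and of 18560.5 and 16358.5 UMIs at day 11, so levels are given as CPM.

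Of the other 7 genes, *Vsnl1* had the highest ratio at both days among those above the level filter. *Hcn4* was higher with *Shox2* too, past the call limit at day 11, and *Gja1* was lower with it at day 11. At day 6, 5 of the other 7 genes passed the filter and 1 was called higher and 0 lower, where 1.2% of 9464 genes were higher and 1.97% lower. At day 11, 6 passed; 2 were called higher and 1 lower, where 2.53% of 9477 genes were higher and 0.844% lower. The median ratio was 1.04 at day 6 and 1.05 at day 11.

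*Vsnl1* stood at 267 CPM in *Shox2*-positive and 38.1 CPM in *Shox2*-zero cells at day 6, a ratio of 6.999 (6.10 to 8.06), and at 246 and 25.0 CPM at day 11, a ratio of 9.81 (8.63 to 11.2). *Hcn4* stood at 104 and 53.3 CPM at day 6, a ratio of 1.95 (1.69 to 2.25), and at 98.1 and 24.8 CPM at day 11, a ratio of 3.95 (3.46 to 4.54). Its level in *Shox2*-positive cells was close at the 2 days, and its level in *Shox2*-zero cells was lower at day 11. *Cacna1h* was not called, with ratios of 0.715 (0.558 to 0.911) and 0.874 (0.781 to 0.979). *Cacna1g* had 63 UMIs in all *Myl7*-high cells of day 11, with a ratio of 0.983 (0.576 to 1.71), and 15 at day 6. *Gja5* had 1 UMI in *Shox2*-positive and 2 in *Shox2*-zero cells of day 6.

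*Gja1* stood at 10.2 CPM in *Shox2*-positive and 9.72 CPM in *Shox2*-zero cells at day 6, from 48 and 62 UMIs, a ratio of 1.05 (0.707 to 1.56). At day 11 it stood at 16.5 and 33.1 CPM, a ratio of 0.497 (0.422 to 0.585). That call sat on the limit, and the ratio was 0.604 with doublets left in, 0.608 with every cell of more than 200 genes and 0.541 at a *Myl7* limit of 100. The other connexins were not called. *Gjc1* had ratios of 1.06 (0.927 to 1.21) at day 6 and 0.935 (0.826 to 1.06) at day 11, and *Gja5* stood at 9.68 and 8.31 CPM at day 11, a ratio of 1.17 (0.889 to 1.54).

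**Figure D3:**
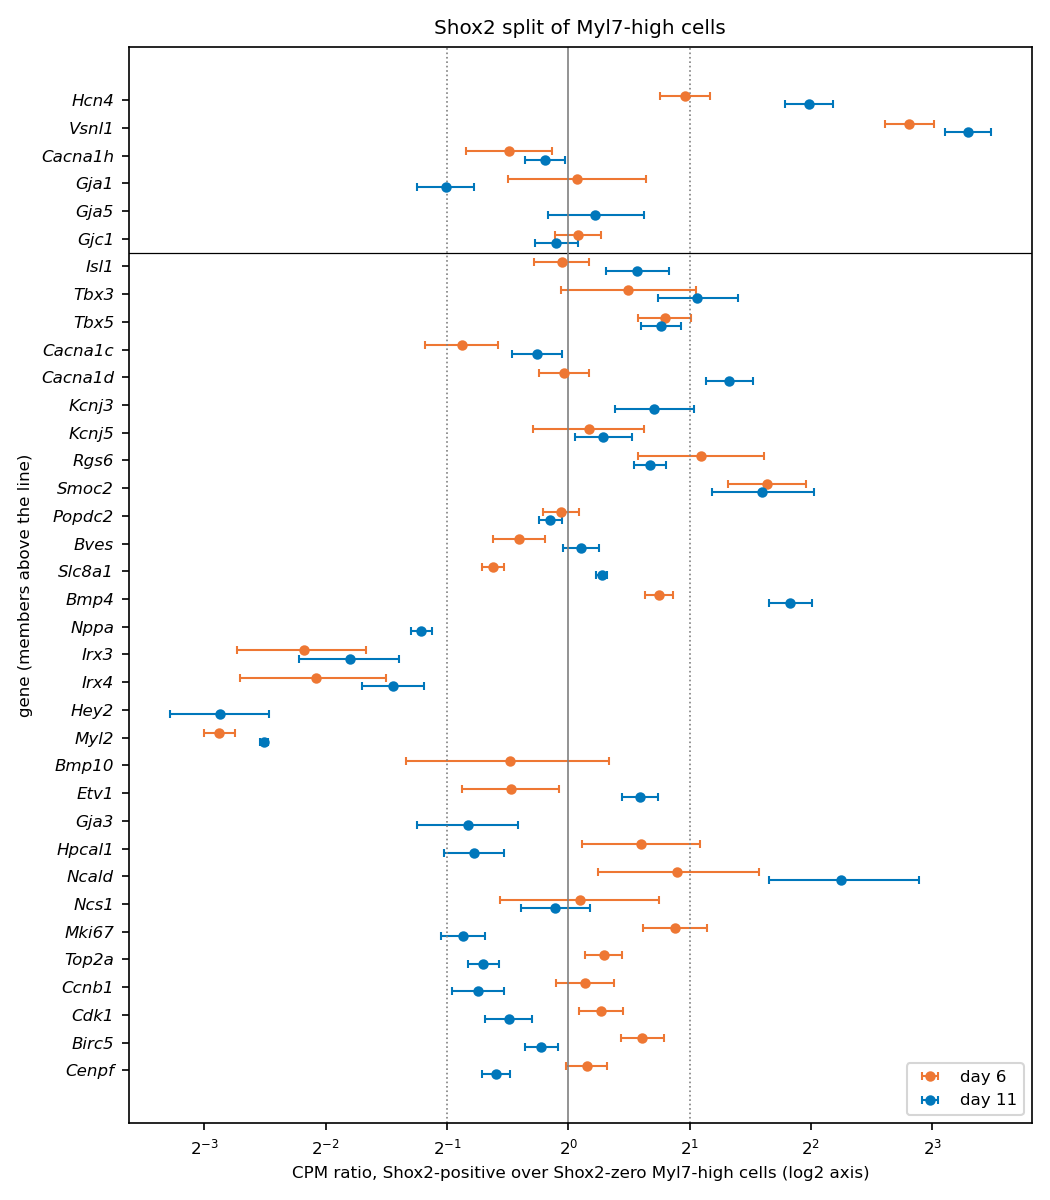
Ratio of CPM in *Shox2*-positive over *Shox2*-zero *Myl7*-high cells (log2 axis) for the members and listed pathway genes that passed the level filter, at day 6 (orange) and day 11 (blue), with exact 95% intervals; dotted lines mark the call limits of 0.5 and 2. *Vsnl1* lies highest at both days (6.999 and 9.81), and *Myl2*, *Irx3* and *Irx4* lie below 0.5 at both.

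At day 11 *Vsnl1* and *Hcn4* were lowest in cells with 0 *Shox2* UMIs and highest in cells with 3 or more. For both genes, cells with 1 and with 2 *Shox2* UMIs did not differ beyond counting error. These classes were not compared within clusters. In the *Myl7*-high cells of day 11 thinned to 5000 UMIs, 605 cells held 0 *Shox2* UMIs, 143 held 1, 113 held 2 and 327 held 3 or more. *Vsnl1* stood at 54.9, 192, 232 and 341 CPM in these classes, and *Hcn4* at 41.0, 79.7, 86.7 and 150 CPM. *Gja1* ran the other way, at 29.8, 23.8, 12.4 and 9.79 CPM, while *Cacna1h* (51.2, 50.3, 37.2 and 37.9 CPM) and *Gjc1* (42.6, 39.2, 26.5 and 47.1 CPM) kept within overlapping intervals. At day 6 the classes held 320, 41, 26 and 32 cells. *Vsnl1* stood at 79.4, 234, 254 and 456 CPM there, with the last class above the others beyond counting error. *Hcn4* stood at 68.8, 146, 100 and 119 CPM, with no order among the 3 positive classes beyond counting error.

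**Figure D4:**
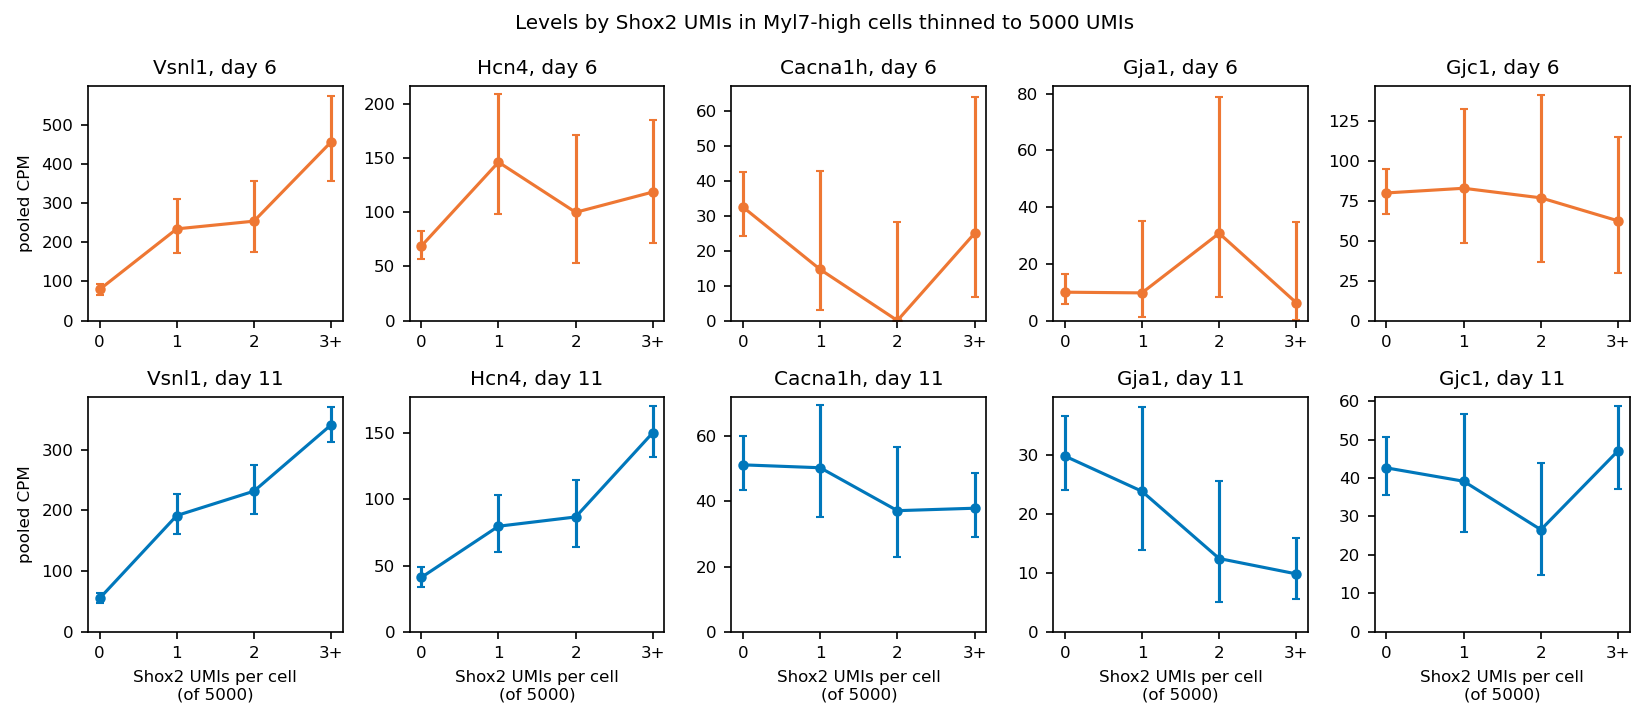
Pooled CPM (axes from 0) of *Vsnl1*, *Hcn4*, *Cacna1h*, *Gja1* and *Gjc1* in *Myl7*-high cells with 0, 1, 2 and 3 or more *Shox2* UMIs after thinning to 5000 UMIs, at day 6 (top) and day 11 (bottom), with exact 95% Poisson intervals. At day 11 *Vsnl1* goes from 54.9 to 341 CPM and *Gja1* from 29.8 to 9.79 CPM across the classes.

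The *Shox2*-positive and *Shox2*-zero cells of day 11 came mostly from different clusters. The clusters were built without the 8 genes and without the pathway genes. Of the 756 positive cells, 402 lay in cluster 5, led by *Acta2*, and 201 in cluster 13, led by *Nppa*. Of the 538 negative cells, 298 lay in cluster 8, led by *Myl2*. Within these clusters the *Vsnl1* ratio was 2.67 (2.20 to 3.27) in cluster 5, 11.9 (7.88 to 18.3) in cluster 8 and 2.68 (2.12 to 3.42) in cluster 13. The *Hcn4* ratio was 3.02 (2.14 to 4.42), 2.05 (1.52 to 2.77) and 1.63 (1.27 to 2.11). The *Gja1* ratio was 0.875 (0.456 to 1.88), 0.486 (0.315 to 0.724) and 0.479 (0.356 to 0.648). *Cacna1h*, not called over all *Myl7*-high cells, had a ratio of 2.09 (1.18 to 4.09) in cluster 5, from 275 and 12 UMIs, and of 1.08 in each of the other 2. *Gja5* had a ratio of 2.13 (1.21 to 3.69) in cluster 8, from 23 and 37 UMIs, and of 0.962 (0.668 to 1.41) in cluster 13. In the cardiomyocyte-like cluster of day 6, which held 320 of the 423 *Myl7*-high cells, the ratio was 6.91 (5.95 to 8.05) for *Vsnl1* and 1.79 (1.52 to 2.10) for *Hcn4*.

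*Shox2* was also found in cells under the *Myl7* limit, and *Vsnl1* went with it there too. At day 6, 411 of 4831 other cells were *Shox2*-positive, and *Vsnl1* stood at 115 against 6.64 CPM (ratio 17.3, 15.9 to 18.9) and *Hcn4* at 34.7 against 4.78 CPM (7.25, 6.37 to 8.24). These 2 genes were the ones called, where 2.04% of 9749 genes were higher and 2.49% lower, and 208 of the 411 cells lay in 1 unnamed cluster led by *Sfrp5*. The 411 cells also held more heart muscle RNA than the other cells without *Shox2*. Of 10 cardiomyocyte markers, 7 passed the filter and 6 were higher, with summed levels of 1691 against 324 CPM. At day 11, 729 of 6560 other cells were positive and *Vsnl1* was the 1 gene called, where 0.988% of 10322 genes were higher and 2.93% lower. It stood at 18.5 against 3.64 CPM (5.07, 4.21 to 6.10), while *Gja1* stood at 72.8 against 44.8 CPM (1.62, 1.502 to 1.75) and *Cacna1g* at 16.7 against 9.73 CPM (1.71, 1.45 to 2.01). *Hcn4* was under the level filter there, at 4.16 against 1.37 CPM (3.04, 2.10 to 4.35). Most of these 729 cells lay in 3 mesenchyme-like clusters, with 148, 123 and 116 cells, and in an unnamed one with 104. Of the 10 cardiomyocyte markers, 0 were higher and 2 lower in them, with summed levels of 1555 against 1037 CPM. The *Gja1* ratio was thus below 1 in *Myl7*-high cells of day 11 and above 1 in other cells of that day, and the difference was not tested.

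The promoters of *Shox2*, *Vsnl1* and *Hcn4*, which were higher in the same cells, and of *Gja1*, which was lower in them at day 11, are printed to show the sequence upstream of these starts. RefSeq promoters of GRCm38.p6 were at hand for 5 of the 8 genes (*Gja5* being the other), and not for *Cacna1g*, *Cacna1h* or *Gjc1*. The window runs from 250 to 51 bases before the transcript start, 5′ to 3′ in the direction of the gene. A set of 5 motifs, chosen after the values were seen, was searched on both strands, and matches are in capitals. The letters searched were GATAAG for factors of the GATA family. For T-box factors they were GGTGTG. For NK2 homeodomain factors they were AAGTGG. For COUP-TF factors they were AGGTCA, a single site of the paired element. For the TATA box they were TATAAA.
*Shox2*, chr3:66981822-66982021, minus strand: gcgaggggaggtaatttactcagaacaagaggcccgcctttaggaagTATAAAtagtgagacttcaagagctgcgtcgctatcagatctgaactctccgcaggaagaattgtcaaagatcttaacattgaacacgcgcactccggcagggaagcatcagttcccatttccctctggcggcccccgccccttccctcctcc
*Vsnl1*, chr12:11436629-11436828, minus strand: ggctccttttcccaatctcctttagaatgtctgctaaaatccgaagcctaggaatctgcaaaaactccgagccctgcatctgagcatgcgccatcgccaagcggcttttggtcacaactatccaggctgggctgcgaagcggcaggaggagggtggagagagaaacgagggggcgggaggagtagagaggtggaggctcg
*Hcn4*, chr9:58822699-58822898, plus strand: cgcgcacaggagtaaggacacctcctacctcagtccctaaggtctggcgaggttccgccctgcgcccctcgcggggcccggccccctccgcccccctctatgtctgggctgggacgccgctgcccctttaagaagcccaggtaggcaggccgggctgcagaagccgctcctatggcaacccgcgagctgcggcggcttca
*Gja1*, chr10:56377050-56377249, plus strand: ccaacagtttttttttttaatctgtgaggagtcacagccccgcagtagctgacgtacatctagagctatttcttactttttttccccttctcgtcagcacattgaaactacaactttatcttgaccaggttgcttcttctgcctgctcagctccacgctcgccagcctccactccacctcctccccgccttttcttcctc
The 1 match in these 4 windows is TATAAA in *Shox2*, which begins 203 bases before the start. In the same window of all 32851 promoters, 9.14% held the TATA box letters on either strand. For the GATA, T-box, NK2 and COUP-TF letters the shares were 5.49%, 13.4%, 11.3% and 11.4%, and the motifs do not overlap in these windows. A match is a run of letters and not a measured site, and its absence says that these letters are not in this window. The bases nearest the start were not searched, so the search cannot show whether a gene has a TATA box there.

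Other genes of the pacemaker programme were described from lists. Of the 4 pacemaker transcription factors, 3 passed the filter in the day 11 split, 1 was higher in *Shox2*-positive *Myl7*-high cells and 0 lower, with a median ratio of 1.70. The gene called was *Tbx3*, a repressor of chamber genes in the node, at 20.9 against 10.0 CPM (2.09, 1.67 to 2.63). At day 6, 3 passed and 0 were called, with a median ratio of 1.41. *Tbx5* had ratios of 1.74 and 1.70 at the 2 days. *Cacna1d*, an L-type calcium channel pore gene of the node, was higher at day 11 (68.2 against 27.2 CPM, 2.51) and stood at 70.6 against 72.3 CPM at day 6. *Cacna1c*, the main L-type pore gene of working muscle, had ratios of 0.544 and 0.837.

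Of 8 other nodal channel and signalling genes, 7 passed at day 6 and 8 at day 11, and 2 were higher at each day and 0 lower, with median ratios of 1.12 and 1.41. *Smoc2*, a secreted matricellular protein gene, was higher at both days (3.11 and 3.02). *Bmp4*, a signalling ligand, stood at 288 against 171 CPM at day 6 (1.68) and 110 against 30.9 CPM at day 11 (3.55). *Rgs6*, a regulator of G protein signalling, stood at 17.7 against 8.31 CPM at day 6 (2.13) and at 99.9 against 62.7 CPM at day 11 (1.59). Chamber and fast conduction genes went the other way. At day 6, 5 of 9 passed and 3 were lower and 0 higher (median 0.236), and at day 11, 6 passed and 5 were lower and 0 higher (median 0.328). *Myl2* stood at 119 against 873 CPM at day 6 and 686 against 3907 CPM at day 11. The chamber factors *Irx3* and *Irx4* had ratios of 0.221 and 0.236 at day 6 and 0.287 and 0.368 at day 11. *Hey2*, a ventricular factor, had 0.137 and *Nppa* 0.432 at day 11. The genes of these lists were not compared within clusters. Of the cells of cluster 13 of day 11, which *Nppa* led, 70.3% were *Shox2*-positive and *Myl7*-high, so the pooled *Nppa* ratio does not describe every *Shox2*-positive cluster.

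Other connexins were scarce in *Myl7*-high cells, and of the other calcium sensors 1 differed. Of 17 other connexin genes, 0 passed the filter at day 6 and *Gja3* alone at day 11, at 5.75 against 10.2 CPM. *Gja4*, an endothelial connexin gene, was lower in *Myl7*-high than in other cells at both days, at 0.542 against 10.5 CPM and 0.868 against 13.6 CPM. Of 5 other visinin-like genes, 3 passed at each day. *Ncald* was the 1 called, at 12.3 against 2.60 CPM at day 11 (4.74, 3.15 to 7.44), and *Hpcal1* stood at 16.2 against 27.7 CPM there. The 6 cell cycle genes were called at neither day, with a median ratio of 1.21 at day 6 and 0.639 at day 11, and all 6 were lower in *Myl7*-high than in other cells at both days.

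Among the 2603 genes at 50 CPM or more in the *Myl7*-high cells of day 11, *Vsnl1* had the second highest ratio and *Hcn4* the seventh. Both had been chosen with earlier results of these data known. The others of the 8 highest were *Tagln* (17.3), *Calca* (7.45), *Gal* (4.58), *Acta2* (4.38), *Uchl1* (4.10) and *Flna* (3.82). *Tagln*, *Acta2* and *Flna* code for proteins of the actin cytoskeleton, and *Calca* and *Gal* for neuropeptides. The 8 lowest were *Mpped2* (0.136), *Myl2* (0.176), *Myh7* (0.179), *Myl3* (0.231), *Spink4* (0.266), *Pln* (0.294), *Hopx* (0.342) and *Cited1* (0.347), among which *Myl2*, *Myh7*, *Myl3* and *Pln* code for contractile and calcium-handling proteins of ventricular muscle. At day 6 *Vsnl1* was again second of 2762 genes, after *Id4* (7.99). *Hsd3b6* (6.76), *Nr2f2* (6.29), *Flrt3* (3.80), *Lxn* (3.74), *Nr2f1* (3.21) and *Phlda1* (2.59) completed the 8 highest; *Nr2f1* and *Nr2f2* code for COUP-TF factors of atrial and venous identity. The 8 lowest at day 6 were *Pcp4* (0.105), *Tdgf1* (0.134), *Myl2* (0.136), *Armh4* (0.261), *Cck* (0.275), *Mpped2* (0.281), *Cavin3* (0.301) and *Myh7* (0.302).

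Some markers of other cell types moved with the split at day 11. Over all 9477 genes, 2.53% were higher and 0.844% lower. Of 6 smooth muscle markers, 5 passed the filter and 4 were higher in *Shox2*-positive cells, with summed levels of 3612 against 882 CPM. Of 8 mesenchyme markers, 6 passed and 4 were higher, with summed levels of 175 against 87.8 CPM. The 1 endoderm marker that passed was higher and the 1 epicardium marker that passed was lower. The neural, endothelium and skeletal muscle markers that passed were not called. The 10 cardiomyocyte markers summed to 38140 and 40956 CPM, and 1 was lower and 0 higher. At day 6, 1 of 5 smooth muscle markers was lower and 0 higher (3871 against 6228 CPM), and 0 of 6 mesenchyme markers were called. Of the 10 cardiomyocyte markers at day 6, 2 were lower and 0 higher, where 1.97% of all 9464 genes were lower. They summed to 19633 against 28299 CPM, with a median ratio of 0.663. The cluster led by *Sfrp5* held 25.0% of the 168 *Shox2*-positive and 4.31% of the 255 *Shox2*-zero *Myl7*-high cells of day 6. The part of these markers in the differences of *Vsnl1*, *Hcn4* and *Gja1* was not tested.

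At day 11 *Vsnl1* and *Hcn4* were found more often in *Myl7*-high cells that held *Shox2*. In *Myl7*-high cells of day 11 thinned to 5000 UMIs, *Vsnl1* was found in 54.4% of the 583 cells with *Shox2* and 15.04% of those without. Endothelium-like cells of day 11, taken as background, held *Vsnl1* in 0.245% and *Hcn4* in 0 of the thinned cells. *Shox2* was found in 70.4% of the 321 cells with *Hcn4* and 41.2% of those without, and *Vsnl1* in 53.9% and 27.1%. *Gja1* was found in 5.83% of cells with *Shox2* and 13.6% of those without. *Gjc1* was found in 18.4% and 18.7%, and *Cacna1h* in 16.8% and 22.1%. At day 6 *Vsnl1* was found in 64.6% of the 99 cells with *Shox2* and 20.3% of those without. Of the other 7 genes, 41.8% of 469 *Shox2*-zero cells of day 11 held 0 at this depth, against 20.2% of 719 *Shox2*-positive cells, where cells were split before thinning. Over all 1188 thinned *Myl7*-high cells of day 11, 28.7% held 0 of the 7, 38.2% held 1 and 25.4% held 2, and at day 6 the shares of 419 cells were 27.9%, 39.9% and 23.6%. At 5000 UMIs most copies of a gene at these levels are missed, so a cell without a UMI may still express the gene.

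The levels by cluster are a description, since each cluster was built from the same cells. At day 11, *Hcn4*, *Shox2* and *Vsnl1* were highest of all 24 clusters in cluster 5 (468 cells, 95.5% of them *Myl7*-high), at 127 CPM (120 to 135), 617 CPM (600 to 633) and 366 CPM (354 to 379). Cluster 5 was led by *Acta2*, *Vsnl1* and *Pnmt*; 8 of 10 cardiomyocyte markers were raised in it, but its 10 leading genes held the smooth muscle markers *Acta2* and *Tagln* and no cardiomyocyte marker, so it was given no name. Cardiomyocyte-like cluster 13 (286 cells, led by *Nppa*, *Casq1* and *Sln*) held 62.7 CPM of *Hcn4*, 403 CPM of *Shox2* and 103 CPM of *Vsnl1*. Cardiomyocyte-like cluster 8 (410 cells, led by *Myl2*, *Myh7* and *Myl3*) held 23.3, 38.2 and 15.9 CPM. Cardiomyocyte-like cluster 19, led by *Gm26917*, had a median depth of 3248 UMIs, the lowest of the day, and held 104 of the 1294 *Myl7*-high cells. Its *Vsnl1* level of 115 CPM (86.8 to 150) did not differ from that of cluster 13 beyond counting error. Without cluster 19 the *Shox2*-positive share was 59.9% and the same 3 genes were called in the split.

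*Gja5* was highest in cluster 13, at 22.1 CPM (18.8 to 25.8), against 7.02 CPM (5.37 to 9.01) in cluster 8 and 1.90 CPM (1.10 to 3.04) in cluster 5. Clusters 13 and 5 were thus both high in *Shox2* and far apart in *Gja5*. The endothelium-like cluster held 5.57 CPM (4.17 to 7.29) of *Gja5* at day 11, and at day 6 it held 97 of the 107 *Gja5* UMIs of the day (6.56 CPM, 5.32 to 8.003). *Cacna1h* stood at 59.6, 59.1 and 32.8 CPM in clusters 8, 13 and 5. The first 2 did not differ beyond counting error. *Gja1* stood at 34.0, 26.5 and 12.2 CPM in the same order, with cluster 5 below the others beyond counting error, and *Gjc1* at 40.8, 32.8 and 42.6 CPM.

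*Cacna1g* was highest outside the heart muscle clusters of day 11, at 30.1 CPM (25.2 to 35.8) in mesenchyme-like cluster 9, led by *Cxcl14*, and 25.2 CPM (22.2 to 28.6) in mesenchyme-like cluster 1, led by *Scx*. It stood between 2.09 and 2.48 CPM in the 5 clusters with mostly *Myl7*-high cells. The 2 mesenchyme-like clusters did not differ beyond counting error. *Gja1* and *Gjc1* were highest at day 11 in unnamed cluster 14, led by *Dppa5a*, at 102 and 160 CPM, which did not differ beyond counting error from the 95.1 and 150 CPM of neural-like cluster 16. Cluster 14 also held 121 CPM of *Shox2*. At day 6 *Gja1* was highest in an unnamed cluster led by *Hes7*, at 185 CPM (173 to 197), and in the neural-like cluster, at 137 CPM (131 to 143). At day 6 *Shox2* was highest in the unnamed cluster led by *Sfrp5* and *Alcam* (504 cells, of which 53 were *Myl7*-high), at 131 CPM (124 to 138), beside 69.3 CPM (63.9 to 74.9) in the cardiomyocyte-like cluster. *Vsnl1* did not differ between those 2 clusters beyond counting error (128 and 126 CPM), and *Hcn4* stood at 43.1 and 73.9 CPM.

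**Figure D5:**
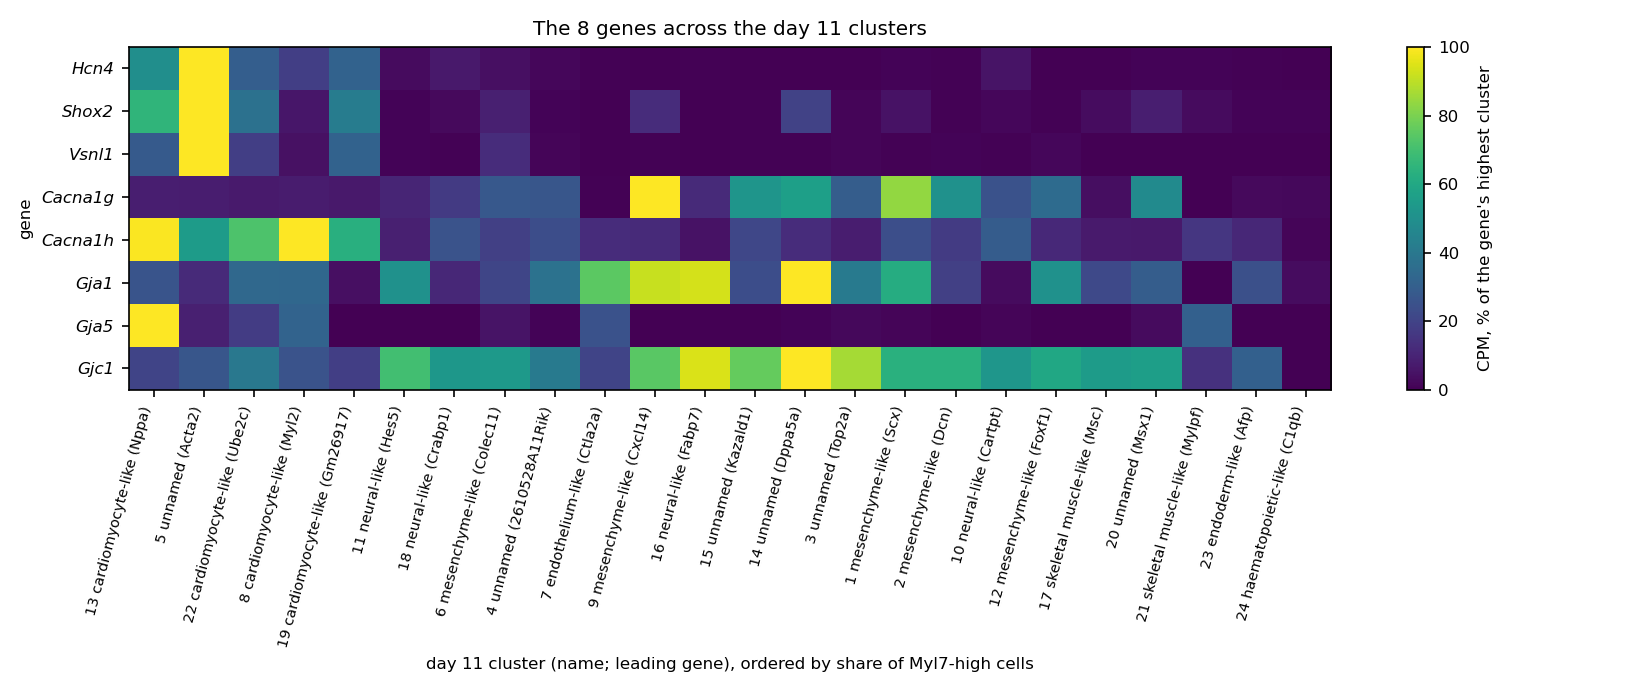
Heat map of the 8 genes (rows) in the 24 clusters of day 11 (columns, with cluster number, name and leading gene, ordered by the share of *Myl7*-high cells); the colour is the pooled CPM as a percentage of that gene's highest cluster. *Hcn4*, *Shox2* and *Vsnl1* share their highest cluster, number 5, while *Gja5* is highest in cluster 13 and *Cacna1g* in cluster 9.

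Over the 24 clusters of day 11, the genes whose log2(CPM + 10) was most alike were found among 6206 genes, as a description in which clusters share a library and the heart muscle clusters weigh most. *Hcn4* was nearest to *Cnn1*, *Rec114* and *Fbxo32* (r from 0.963 to 0.972), *Vsnl1* to *Fbxo32*, *Wnt2* and *Rgs6* (0.934 to 0.946), and *Shox2* to *Ndufa11*, *Dnajc15* and *Vsnl1* (0.837 to 0.848). *Cacna1h* was nearest to *Pfkm*, *Ppp2r3a* and *Dstn* (0.936 to 0.956), and *Cacna1g* to *Col11a1*, *Scube1* and *Aff3* (0.881 to 0.912). *Gja5* was nearest to *Lmod2*, *Platr26* and *Afap1l1* (0.800 to 0.811), *Gja1* to *Plpp3*, *Mtap* and *Stag2* (0.753 to 0.838), and *Gjc1* to *Pcm1*, *Mettl9* and *Smad4* (0.922 to 0.933).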

How the data were processed

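RNA of single cells was measured in a single library for each of days 4, 5, 6 and 11 of Zx1 gastruloid culture. For each library the authors deposited UMI counts per gene and cell, not normalized, with barcodes already called as cells (total 149169498 to 236714826 UMIs). The submitters' processing notes name Cell Ranger 3.1.0 and mm10, while the matrix header of day 11 names version 6.0.1; the annotation is not given in the sources used here. The members, lists and rules were chosen with earlier results of these data known.

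The filters on cells were a minimum of more than 200 genes, mitochondrial UMIs under 20%, UMIs of ribosomal proteins over 5%, and a log10 depth no more than 3 scaled median absolute deviations from the median. The 8% of cells with the highest doublet scores (2 simulated doublets per cell) were then removed. CPM, shares and ratios were computed here from the deposited counts, as pooled UMIs of a set of cells over their total, with exact Poisson, Clopper-Pearson and conditional binomial intervals. Clusters of days 6 and 11 used 2000 variable genes without the 8 genes and the pathway lists, 30 components, 20 neighbours and Leiden at resolution 1 (Python 3.11.15, leidenalg 0.10.2). A name needed at least 3 markers raised 2-fold in CPM plus 10 and found in 10% of cells, no tie, and no other list with more markers among the 10 leading genes; the handling of ties was set after the clusters had been seen. Named genes were the 8 genes, the listed genes, the 8 highest and 8 lowest ratios of each *Shox2* split at 50 CPM or more, and the 3 genes nearest to each of the 8. Of the listed genes, 3 are not reported here, and the counts and medians of their lists leave them out. The calculation of ratios was checked on simulated counts with known ratios. Features for GFP had 0 UMIs.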

Additional observations from a re-analysis of the deposited data

Results flagged for a closer look

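The genes *Gja1* and *Gja5* had effects that pointed to opposite sides of 1 at days 6 and 11, and the difference between the days was not tested. The *Gja1* ratio of *Shox2*-positive over *Shox2*-zero *Myl7*-high cells was 1.05 at day 6 (0.707 to 1.56, 110 UMIs) and 0.497 at day 11 (0.422 to 0.585, 603 UMIs), and the day 6 interval spans 1. The *Gja5* ratio of *Myl7*-high over other cells was 0.362 at day 6 (0.0734 to 1.09), from 3 UMIs in *Myl7*-high cells, and 9.74 at day 11 (7.55 to 12.7).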

How the results depend on the processing

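No paired analysis was possible because there was 1 library per day. Depth limits *Gja5* and *Cacna1g* most, with 3 and 15 UMIs in the *Myl7*-high cells of day 6. No ratio of a called gene changed direction in any alternative, and 93 of 106 such ratios stayed called. The causes of the changes below were not tested. The *Myl7*-high share of day 6 was 9.34% with every cell of more than 200 genes, 11.9% at a *Myl7* limit of 10 and 4.17% at 100; at day 11 these were 19.2%, 18.0% and 11.5%, and 17.7% with doublets left in. The *Shox2*-positive share of day 6 was 33.9% with every cell of more than 200 genes, 29.7% at a *Myl7* limit of 100, 31.9% at 2 or more *Shox2* UMIs, and 23.6% and 20.1% in cells thinned to 5000 and 3000 UMIs. At day 11 it was 55.6% and 67.2% at *Myl7* limits of 10 and 100, 50.7% at 2 or more *Shox2* UMIs, and 49.1% and 40.3% thinned. The day 6 split, with 1 gene called, gave 2 at a *Myl7* limit of 100, at a 1.5-fold limit and at 2 or more *Shox2* UMIs (*Hcn4* added). It also gave 2 with no filter on low genes (*Cacna1g* added) and 2 in thinned cells (*Cacna1h* added, as lower in *Shox2*-positive cells). The comparison of day 11 with day 6, with 3 genes called, gave 1 (*Shox2*) with every cell of more than 200 genes and 1 with doublets left in. The day 6 split gave no value for *Cacna1g* at a *Myl7* limit of 100 and for *Gja5* in thinned cells, with 0 UMIs in *Shox2*-zero cells. The option without cluster 19 was chosen after seeing the data. Of 48 highest cluster levels under other clusterings, 30 stayed within the counting interval.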
